A study of Mus musculus with 3 samples.

Results

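The genes described here encode elastic fibers and the enzymes that cross-link them: *Eln*, *Fbn1*, *Fbn2*, *Mfap4*, *Fbln5*, *Efemp1*, *Efemp2*, *Lox*, *Loxl1* and *Loxl2*. They were chosen by name, and all 10 were found among the 31053 genes of the count matrices. Their unique molecular identifiers (UMIs, 1 per captured transcript) were read in cells dissociated from the iridocorneal angle and limbal region of mice aged 6 weeks, by the cell label that the authors deposited and by library. Control mice were *Angpt1* flox/flox, and *Angpt1*ΔNC mice were *Angpt1* flox/flox;Wnt1Cre+, so every animal carried the floxed *Angpt1* allele and only the mutants carried the Cre, whose Wnt1 promoter is active in neural crest. The strain is given as mixed, with crosses onto ICR mice to obtain albino litters. Each library pooled the eyes of several mice of both sexes, with 2 control libraries and 1 *Angpt1*ΔNC library. All p-values therefore refer to pools of eyes, and the single mutant library is assumed to vary like the controls. With so few pools, the spread of a gene was estimated largely by sharing information over all genes. A small p-value is thus no replication of the mutant.

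Elastic fibers have an elastin core that is laid down on a scaffold of fibrillin microfibrils. Fibulins bring tropoelastin and the cross-linking enzymes to that scaffold, and the lysyl oxidases join elastin and collagen chains into an insoluble network. In the anterior eye such fibers run through the trabecular meshwork and the tissue around Schlemm's canal, the route by which aqueous humor leaves the eye, and *Loxl1* is known from pseudoexfoliation glaucoma.

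The libraries held 9076, 10160 and 6772 kept cells (control 1, control 2 and *Angpt1*ΔNC, the order used throughout), with 76981606, 80346829 and 66484181 UMIs and medians of 6329.5, 6393.5 and 7444 UMIs per cell. Between 13 and 25 cell barcodes were shared by any pair of libraries. Cells typed as male by Y-linked transcripts made up 69.7% and 72.1% of the control cells and 29.4% of the mutant cells, so sex composition moved with genotype. *Angpt1* itself, the targeted gene, fell from 131 and 118 to 0.901 counts per 1000000 (CPM) in the cells labelled TM1 to TM11, called the stromal class below (edgeR quasi-likelihood test, log2 fold change -7.10, adjusted p = 3.92e-06). Deposited labels were checked against marker genes. Keratocyte markers *Kera* and *Angptl7* were highest in TM1, and corneal endothelial markers *Cldn10* and *Cdh2* in TM2. Trabecular meshwork markers *Myoc* and *Chil1* were highest in TM4, and fibroblast markers *Cd34*, *Clec3b*, *Pi16* and *Tnxb* in TM10. Other markers of these lists peaked elsewhere. Keratocyte markers *Lum*, *Aldh3a1* and *Ptgds* were highest in TM5, cluster 5 and cluster 1. Corneal endothelial *Atp1b1* was highest in cluster 1 and fibroblast *Dpt* in TM1. The mural class joined clusters 19 to 21 (smooth muscle and pericyte markers), and the endothelial class joined SC (Schlemm's canal), LEC and EC2 to EC4.

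A level below is the mean over cells of a gene's UMIs per 10,000 UMIs of the cell. Levels come from a 3′ tag per transcript and are compared for the same gene between labels and libraries, not between genes. Levels across labels are a description with no test, since the labels were made by clustering the same cells. In control cells the stromal class held the bulk of the UMIs of 6 members, from 69.9% for *Fbln5* to 82.6% for *Mfap4*, and 52.1% and 52.5% of those of *Fbn2* and *Efemp2*. *Loxl2* had 46.4% of its UMIs there and *Efemp1* only 16.4%, with 79.8% of *Efemp1* in epithelia, retinal pigment epithelium and ciliary epithelium (clusters 1 to 5 and 7).

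Share of cells with a UMI was read against free RNA, which gives stray UMIs in cells that do not express a gene. *Eln* was found in 22.6%, 23.6% and 36.0% of stromal cells. In limbal and corneal epithelium (clusters 4 and 5), at medians of 17717, 15168.5 and 15135 UMIs per cell, it was found in 0.303%, 0.494% and 0.878%, and in T cells (cluster 22), at medians of 2267, 2500 and 2531, in 1.12%, 2.26% and 0%. The last share rests on 105 cells, which allows up to 2.86%. *Mfap4* was found in 83.2%, 87.9% and 86.7% of stromal cells, against 6.27%, 5.63% and 3.95% of epithelial cells and 3.37%, 6.02% and 6.67% of T cells. For 9 of the 10 members the stromal share exceeded both backgrounds in every library. The exception was *Efemp1*, which epithelium itself carried in 92.6%, 95.6% and 95.3% of cells, so T cells (1.12%, 0% and 2.86%) are its background.

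**Figure D1:**
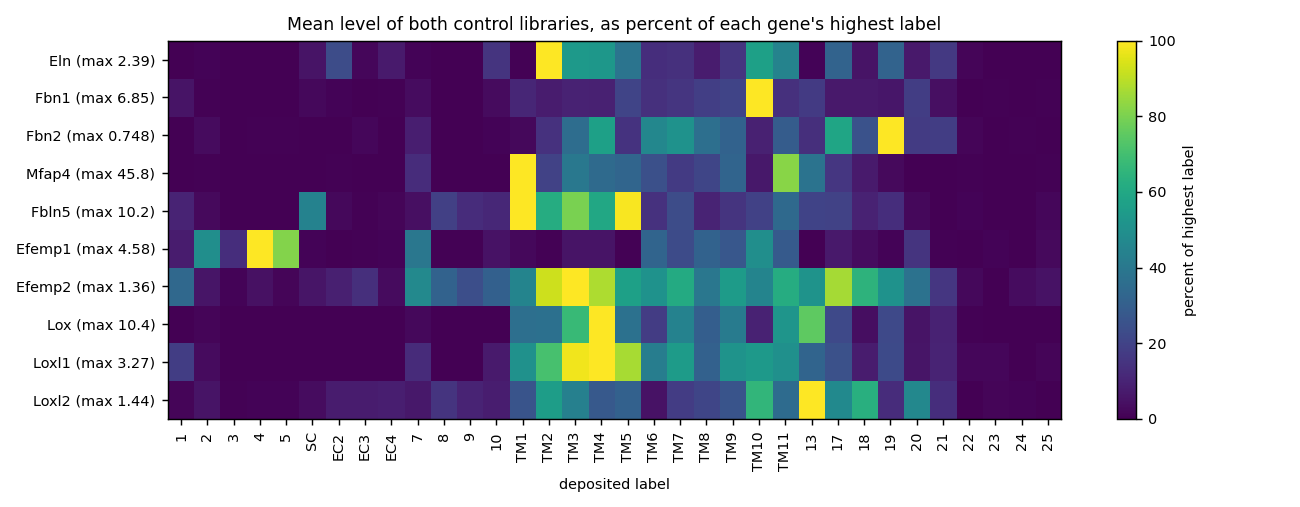
Mean level of each member over both control libraries in each deposited label with at least 10 cells in both controls, as percent of that gene's highest label (colour), with the highest level in UMIs per 10,000 beside the gene. *Fbn1* peaks in TM10, *Mfap4* and *Fbln5* in TM1, *Lox* and *Loxl1* in TM4, and *Efemp1* in cluster 4, outside the stroma. With UMIs summed over the cells of a label, the peak moved to TM5 for *Fbln5* and to TM3 for *Loxl1*. That of *Fbln5* was also in TM5 in cells with at least 2000 UMIs and in control 2 alone.

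The maps over labels were most alike for *Mfap4*, *Lox* and *Loxl1*. Over the 34 labels with at least 10 cells in both controls, log2 levels of *Lox* and *Loxl1* correlated with Pearson's r = 0.926, *Mfap4* and *Lox* with 0.903, and *Mfap4* and *Loxl1* with 0.893. *Efemp1* stood apart, at r = -0.079 with *Fbln5*, -0.025 with *Loxl2* and 0.0026 with *Eln*. These are descriptions over labels that share libraries and depth. Between the controls, r over the same labels lay between 0.917 (*Loxl2*) and 0.989 (*Fbln5* and *Mfap4*). When labels were put in order of their control mean, the control ranges of neighbours overlapped in 22 of 34 pairs for *Mfap4* and *Fbln5*, in 32 for *Eln* and in numbers between these for the others, so that most neighbours in an order do not differ beyond their spread.

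*Eln* (ENSMUSG00000029675; chromosome 5, 134702593 to 134747323, minus strand, GRCm38) encodes tropoelastin, the core of the fiber. Its highest control label was TM2, at 2.23 and 2.56 UMIs per 10,000 in the controls and 2.01 in *Angpt1*ΔNC, with a UMI in 57.1%, 55.2% and 49.8% of cells. TM2 held 29.6% of all control *Eln* UMIs. TM10 came next among the controls at 1.66 and 1.07, followed by TM3 (1.30 and 1.29) and TM4 (1.49 and 1.03), and these ranges overlapped. In the *Angpt1*ΔNC library the order changed: TM10 stood at 11.4, above every other label of that library. Smooth muscle cluster 19 had 0.806 and 0.717 against 2.08. TM1 was nearly empty in controls, with 1 and 3 UMIs in all. The 3 genes with the most similar control map were *Reck* (r = 0.816), *Penk* (0.793) and *Fbxl7* (0.782), over 34 labels and 7322 genes searched.

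*Fbn1* (ENSMUSG00000027204; chromosome 2, 125300594 to 125507993, minus strand), the main fibrillin of adult microfibrils, had its peak in TM10. The level there was 5.74 and 7.97 in controls and 4.72 in *Angpt1*ΔNC, and TM10 held 24.8% of control *Fbn1* UMIs. The next labels were far below, with TM5 at 1.51, 1.31 and 1.12 and TM9 at 1.17, 1.62 and 0.79. Pericyte cluster 20 had 1.10, 1.36 and 1.43. The most similar maps belonged to *Fstl1* (r = 0.938), *Col3a1* (0.917) and *Igsf10* (0.914).

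*Fbn2* (ENSMUSG00000024598; chromosome 18), a fibrillin best known from development, was the sparsest member, with 1862 control UMIs. Cluster 19 led at 0.610, 0.886 and 0.631, followed by cluster 17 at 0.394, 0.485 and 0.406 and TM4 at 0.507, 0.342 and 0.264. TM10, where *Fbn1* peaked, had 0.0831, 0.0527 and 0.0752.

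*Mfap4* (ENSMUSG00000042436; chromosome 11, 61485431 to 61488900, plus strand) encodes a microfibril-associated glycoprotein and had the most UMIs of all members, 72373 in controls. In TM1 it reached 48.6 and 43.0 in controls against 19.7 in *Angpt1*ΔNC, and in TM11 37.8 and 37.6 against 20.05. TM3 had 18.97, 17.6 and 12.2, TM9 15.7, 13.7 and 5.90, and TM5 13.6, 16.3 and 7.93. In each of these labels the mutant library lay below both controls. TM10 had the lowest control level of the TM labels, 2.76 and 3.31, and there the mutant library was above both at 9.94. The most similar maps were those of *Mrc2* (r = 0.963), *Prrx2* (0.960) and *Dcn* (0.949).

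**Figure D2:**
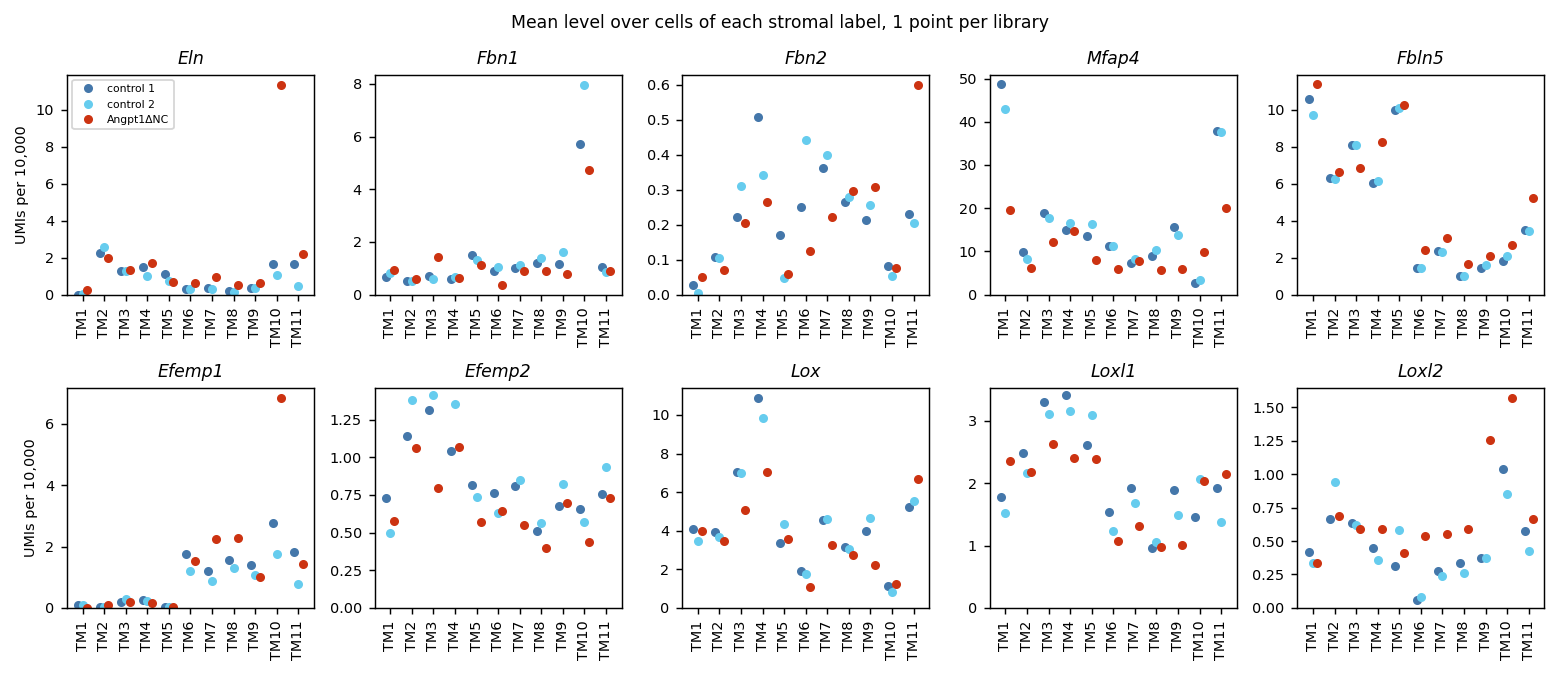
Mean level (UMIs per 10,000 UMIs of the cell) of each member in TM1 to TM11, 1 point per library (blue and light blue, controls; red, *Angpt1*ΔNC). In TM10 the red points for *Eln* (11.4), *Mfap4* (9.94) and *Efemp1* (6.83) lie above both controls, while *Mfap4* in TM1 lies below both (19.7 against 48.6 and 43.0).

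The fibulins *Fbln5* (ENSMUSG00000021186; chromosome 12, 101746565 to 101819055, minus strand) and *Efemp1* (ENSMUSG00000020467; chromosome 11, 28853204 to 28926743, plus strand) are related short fibulins with unlike maps. *Fbln5* binds tropoelastin and integrins and is needed for elastic fiber assembly, while *Efemp1*, also called fibulin-3, is abundant in basement membrane regions. Their promoters are shown because these are the 2 members whose maps differ most, and because the RefSeq promoter table matched them (4 of the 10 members matched, with *Fbn1* and *Efemp2*). Both are the 250 bases before a RefSeq start on GRCm38.p6, printed 5′ to 3′ on the strand of the gene. The first lies at chr11:28852955-28853204 (plus strand) and the second, for the first of its 2 starts, at chr12:101819120-101819369 (minus strand). Capitals mark matches to the motifs searched.
Efemp1: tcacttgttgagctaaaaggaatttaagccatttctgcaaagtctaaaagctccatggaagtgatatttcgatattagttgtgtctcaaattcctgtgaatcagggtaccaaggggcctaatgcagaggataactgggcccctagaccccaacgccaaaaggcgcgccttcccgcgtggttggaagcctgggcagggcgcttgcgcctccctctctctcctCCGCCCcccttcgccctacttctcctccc
Fbln5: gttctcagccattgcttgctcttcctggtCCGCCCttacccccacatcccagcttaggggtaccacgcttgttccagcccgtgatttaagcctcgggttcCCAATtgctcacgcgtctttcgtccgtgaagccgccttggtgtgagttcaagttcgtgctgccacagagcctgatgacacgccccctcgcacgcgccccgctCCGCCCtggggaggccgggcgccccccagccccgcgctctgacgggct

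The motifs searched on both strands were the GC box GGGCGG, the CCAAT box CCAAT, the TATA box TATAAA, the AP-1 site TGACTCA, the SMAD element CAGACA and the E-box CACGTG. They occur in 32.7%, 33.8%, 12.4%, 4.46%, 17.1% and 6.02% of the 32851 promoters of the table. The *Efemp1* window held 1 GC box, ending 24 bases before the start. The *Fbln5* window held 2 GC boxes, the nearer ending 43 bases before the start, and 1 CCAAT box 146 bases before it. GC content was 53.6% and 65.2%, against a median of 52.4% over the table. A match is a description of these letters, not of binding.

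*Fbln5* was highest in TM1, at 10.6 and 9.71 in controls and 11.4 in *Angpt1*ΔNC, and in TM5, at 10.0, 10.1 and 10.3. Every control cell of both labels carried at least 1 UMI. TM3 (8.11, 8.10 and 6.88), TM2 (6.33, 6.24 and 6.65) and TM4 (6.05, 6.15 and 8.24) followed. Outside the stroma, SC had 4.32, 4.65 and 3.45, whereas EC2 had 0.218, 0.245 and 0.108, EC3 0.081, 0.028 and 0.011, and EC4 0.120, 0.191 and 0.059. In SC 91.3%, 74.6% and 60.0% of the 46, 63 and 15 cells carried a UMI. Melanocyte cluster 8 had 1.96, 1.92 and 1.71. *Aebp1* (r = 0.919), *Glt8d1* (0.876) and *Sod3* (0.865) had the most similar maps.

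*Efemp1* was highest in limbal and corneal epithelium, at 4.21, 4.95 and 5.04 in cluster 4 and 3.15, 4.32 and 4.27 in cluster 5. Epithelial cluster 2 followed with 2.40, 2.14 and 1.87, and ciliary epithelium (cluster 7) had 1.52, 2.103 and 2.23. Within the stroma it was high in TM10, low in TM1 to TM5 and also present in TM6 to TM9. TM10 had 2.76 and 1.75 in controls and 6.83 in *Angpt1*ΔNC, with a UMI in 53.6%, 43.7% and 86.2% of cells, whereas TM5 had 0.0147, 0.0219 and 0.0229. As CPM of summed UMIs (edgeR, RLE size factors), controls had 191 and 134 in TM6 and 117 and 89.6 in TM7. In the same unit they had 154 and 129 in TM8 and 146 and 112 in TM9, against 21.4 and 29.1 in TM3. The most similar maps, *Nectin1* (r = 0.774), *Ces1d* (0.746) and *Fst* (0.709), were less alike than those of any other member.

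*Efemp2* (ENSMUSG00000024909; chromosome 19, 5473954 to 5482517, plus strand), or fibulin-4, guides lysyl oxidase to tropoelastin. It was spread over many stromal labels, led by TM3 at 1.32, 1.41 and 0.795, TM2 at 1.14, 1.38 and 1.06, and TM4 at 1.04, 1.35 and 1.07. Cluster 17 had 1.21, 1.15 and 0.671. The mutant library lay below both controls in TM3, TM2 and cluster 17. Its most similar maps were *9530068E07Rik* (r = 0.953), *Maged2* (0.945) and *Scarf2* (0.936).

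**Figure D3:**
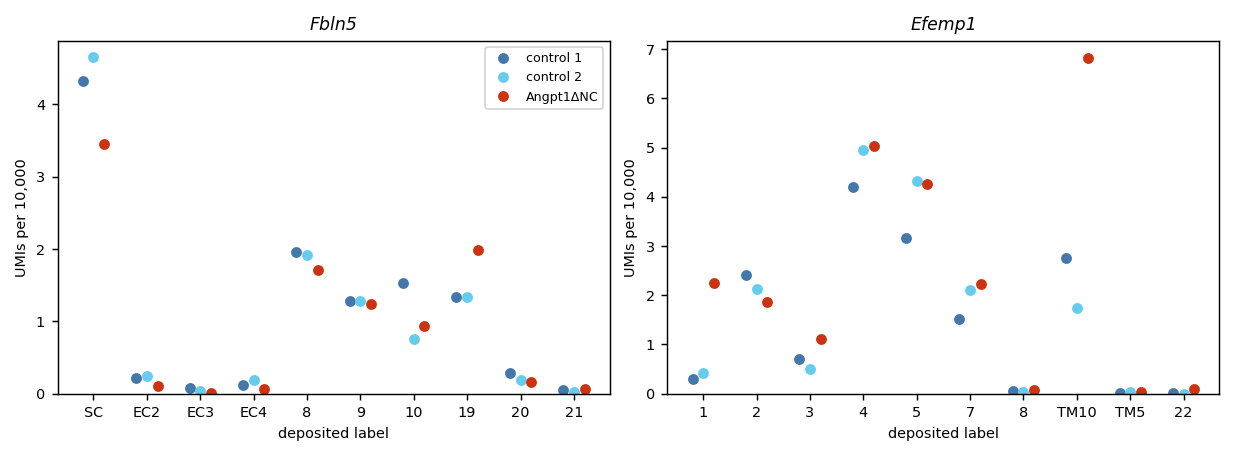
Mean level (UMIs per 10,000) of *Fbln5* in endothelial, melanocyte, Schwann and mural labels (left) and of *Efemp1* in selected labels (right), 1 point per library. SC holds *Fbln5* at 4.32, 4.65 and 3.45 while EC2 to EC4 lie near 0. LEC, with 3, 1 and 12 cells, is not shown. *Efemp1* reaches 4.21 to 5.04 in cluster 4 and 6.83 in TM10 of the *Angpt1*ΔNC library.

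The cross-linking enzymes *Lox* (ENSMUSG00000024529; chromosome 18) and *Loxl1* (ENSMUSG00000032334; chromosome 9, 58287738 to 58313186, minus strand) both peaked in TM4, the label with the highest *Myoc* and *Chil1*. *Lox* had 10.9, 9.83 and 7.05 there, against 7.86, 7.76 and 7.80 in cluster 13 and 7.02, 6.97 and 5.07 in TM3. *Loxl1*, which is tied to elastin cross-linking in particular, had 3.40, 3.15 and 2.40 in TM4, 3.30, 3.11 and 2.62 in TM3, and 2.61, 3.09 and 2.39 in TM5. In TM4 and TM3 the mutant library lay below both controls for both enzymes. The TM4 and TM3 control ranges overlapped for *Loxl1* and not for *Lox*. Genes most like *Lox* were *Twist1* (r = 0.948), *Thbs2* (0.947) and *Prrx1* (0.939), and most like *Loxl1* were *Pcolce* (0.955), which enhances procollagen processing, *Ogn* (0.943) and *Ctsk* (0.941).

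*Loxl2* (ENSMUSG00000034205; chromosome 14, 69609068 to 69695834, plus strand), a family member known to act on collagen IV, had another map. Cluster 13 led at 1.25, 1.63 and 1.30, then TM10 at 1.03, 0.854 and 1.57, and cluster 18 at 0.895, 0.918 and 1.36. TM9 was low in controls, at 0.373 and 0.370, and stood at 1.26 in *Angpt1*ΔNC. Its most similar maps were *1810055G02Rik* (r = 0.880), *Dnajc3* (0.877) and *Kdelr2* (0.869), the last a receptor that retrieves endoplasmic reticulum proteins.

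Joint detection was compared after each cell was thinned to 2000 UMIs, which kept 2721 of 2803, 3271 of 3324 and 1918 of 1946 stromal cells. A stromal cell then carried UMIs of 2.67, 2.67 and 2.72 members on average. The means were 3.41, 3.44 and 3.01 in TM3 and 3.40, 3.32 and 3.17 in TM4, so the mutant library was lower in both. In TM10 the order was the opposite, at 2.21, 2.20 and 3.35. Mural cells carried 0.953, 0.997 and 0.719 members and endothelial cells 0.203, 0.203 and 0.0960.

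The comparison of *Angpt1*ΔNC with control asks whether stroma that lacks *Angpt1* carries a different set of elastic fiber transcripts. UMIs were summed per library and fitted with edgeR over all genes, with 2 controls against 1 mutant. In the stromal class all 10 members passed the filter on low counts. *Eln*, *Efemp1* and *Loxl2* rose and *Mfap4* fell, 4 of 10, where 8.97% of the 13942 genes tested were called. The members' median log2 fold change was -0.08, beside -0.01 over all genes.

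*Eln* stood at 89.0 and 91.6 CPM in controls and 217 in *Angpt1*ΔNC, a log2 fold change of 1.26 ± 0.14 (SE, adjusted p = 0.00128). *Loxl2*, at 43.5 and 49.3 against 77.5 CPM, rose by 0.74 ± 0.14 (adjusted p = 0.0171). *Efemp1*, at 89.7 and 62.6 against 132 CPM, rose by 0.79 ± 0.20 (adjusted p = 0.0459), and *Mfap4* fell from 1449 and 1463 to 982 CPM (-0.57 ± 0.15, adjusted p = 0.0459). All 4 mutant values lay outside the range of the controls. *Efemp1* and *Mfap4* were close to the threshold, and on simulated stromal data 11.98% of calls were false. The other 6 were not called, with log2 fold changes from -0.50 (*Fbn2*, adjusted p = 0.0891) to 0.30 (*Fbln5*, adjusted p = 0.225) and the smallest for *Loxl1* (-0.09) and *Fbn1* (-0.06).

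The calls of *Eln* and *Efemp1* rested on TM10. That label made up 6.92%, 5.02% and 9.66% of stromal cells but held 15.7%, 6.14% and 54.1% of stromal *Eln* UMIs and 25.4%, 15.6% and 57.2% of stromal *Efemp1* UMIs. Without TM10 the log2 fold change of *Eln* was 0.38 (adjusted p = 0.149) and that of *Efemp1* -0.016 (adjusted p = 0.966), whereas *Mfap4* (-0.63, adjusted p = 0.0271) and *Loxl2* (0.66, adjusted p = 0.0249) were still called. With equal numbers of cells per label, *Loxl2* missed the threshold (adjusted p = 0.0534). Among stromal cells a dissociation stress list of 12 genes had summed levels of 66.4, 55.9 and 43.9, and a pigment epithelium list of 4 genes 0.278, 0.233 and 0.0308, with 1 of the 4 at 0 in the mutant library. Their part in the result was not tested.

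A list of 21 partner genes of microfibrils and cross-linking was read beside the members. All 21 passed the filter in the stromal class and 2 were called, a share near the 8.97% of all genes, so the list as a whole gives no result. *Fbln1*, another fibulin, fell from 819 and 792 to 522 CPM (-0.63 ± 0.15, adjusted p = 0.0343), and *Ltbp1*, which tethers latent TGF-β to microfibrils, rose from 57.6 and 75.3 to 116 CPM (0.80 ± 0.18, adjusted p = 0.0285).

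**Figure D4:**
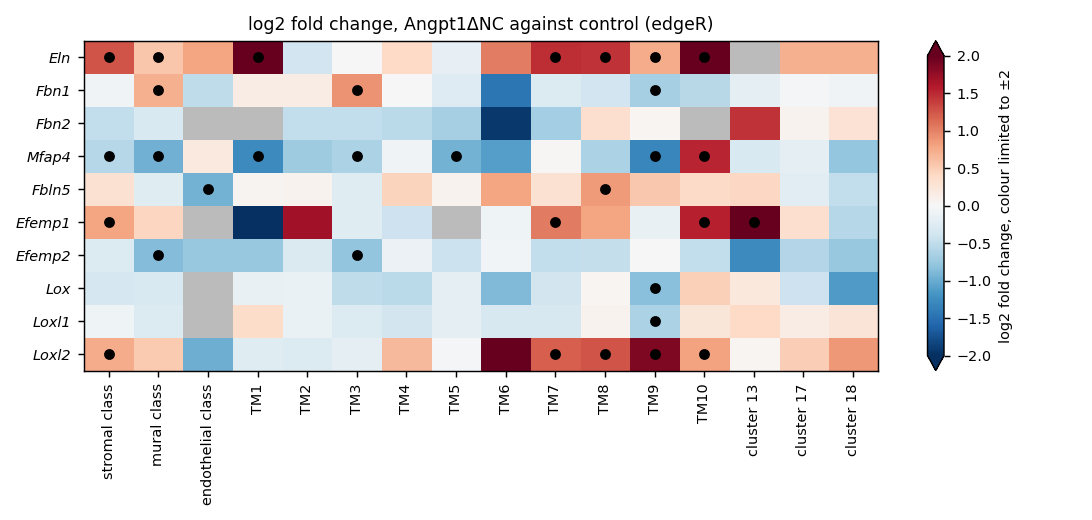
Log2 fold change of each member, *Angpt1*ΔNC against control (colour, limited to ±2), for 3 classes and 13 single labels. Dots mark an adjusted p under 0.05, and grey marks genes that did not pass the filter on low counts, which *Eln* in TM1 and *Efemp1* in cluster 13 passed through the mutant library alone. *Eln* was called up in TM10 (2.92) and *Mfap4* down in TM1 (-1.28) and TM9 (-1.30) but up in TM10 (1.52).

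The TM labels and a few clusters outside the stromal class were then fitted one at a time. In TM10, where 11.6% of all genes were called, 9 members passed the filter and 4 rose. *Eln* stood at 201 and 120 CPM in controls and 1221 in *Angpt1*ΔNC (log2 fold change 2.92 ± 0.22, adjusted p = 1.67e-26). *Efemp1* went from 326 and 208 to 785 CPM (1.55 ± 0.22, adjusted p = 1.05e-09) and *Mfap4* from 276 and 408 to 979 (1.52 ± 0.22, adjusted p = 2.72e-09). *Loxl2* rose from 97.6 and 93.7 to 167 (0.80 ± 0.22, adjusted p = 0.00565), but was not called by DESeq2 (adjusted p = 0.766). *Fbn1*, the member with its peak in this label, was not called, at 641, 912 and 529 CPM (-0.55, adjusted p = 0.116). Of 16 partner genes that passed the filter in TM10, 3 rose and 2 fell.

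A larger share of TM10 cells carried *Eln*, *Efemp1* and *Mfap4* in the mutant library. *Eln* was found in 27.3%, 27.5% and 73.9% of the 194, 167 and 188 cells, with exact 95% intervals of 21.2% to 34.2%, 20.9% to 35.0% and 67.0% to 80.1% that cover counting error only. After thinning to 2000 UMIs the shares were 13.5%, 15.3% and 56.8%. Thinned shares of *Efemp1* were 30.9%, 21.7% and 61.6% and those of *Mfap4* 19.7%, 20.4% and 52.4%. For *Loxl2* they were 21.9%, 14.6% and 22.2%, so that the mutant library was close to control 1. The median TM10 cell held 0, 0 and 4 *Eln* UMIs. In controls a few cells held most of them: the 20 and 17 cells with the most UMIs had 85.2% and 69.6% of them, against 45.0% for the top 19 cells of *Angpt1*ΔNC.

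**Figure D5:**
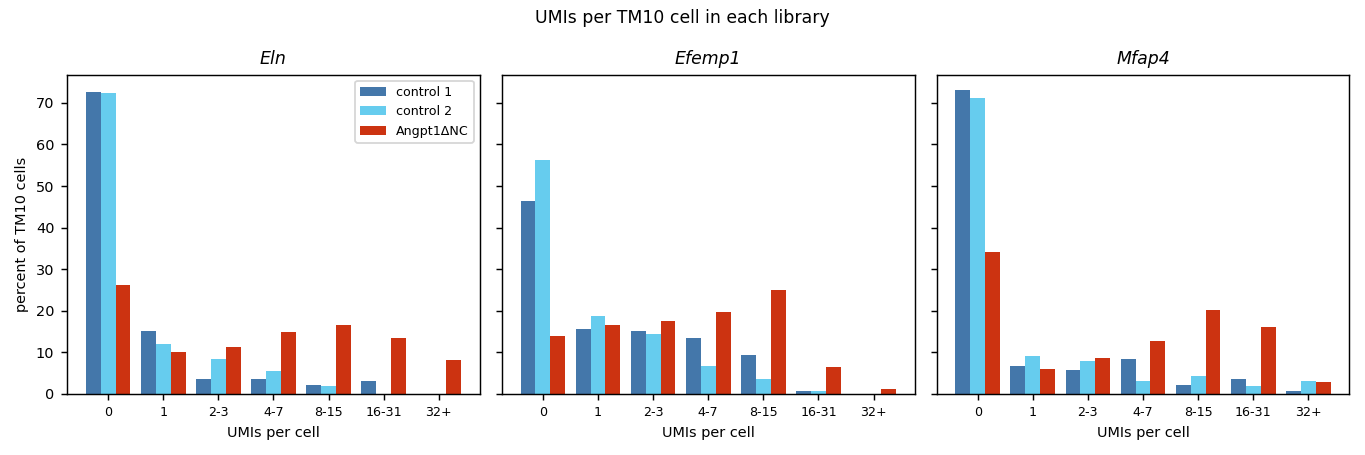
Percent of TM10 cells (y axis) by number of UMIs per cell (x axis, bins) for *Eln*, *Efemp1* and *Mfap4*, 1 bar colour per library. *Eln* was at 0 in 72.7% and 72.5% of control cells and 26.1% of *Angpt1*ΔNC cells, and 7.98% of the mutant cells held 32 or more UMIs.

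The cells under this label differed between libraries in other genes too. *Myoc* was found in 50%, 55.1% and 19.7% of TM10 cells, *Kera* in 11.9%, 14.4% and 2.66% and *Chil1* in 14.9%, 17.96% and 4.79%. The fibroblast markers were at 89.2%, 91.6% and 93.1% for *Cd34*, 89.2%, 93.4% and 97.9% for *Clec3b* and 64.4%, 63.5% and 88.8% for *Dpt*. Summed stress genes were at 116, 128 and 67.6 UMIs per 10,000. *Eln* was higher in cells with no *Myoc* UMI (2.97, 1.40 and 13.8) than in those with one (0.352, 0.796 and 1.24).

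In the 97, 75 and 151 TM10 cells with no *Myoc* UMI, the rise of *Eln* was 2.39 (adjusted p = 1.16e-13), that of *Efemp1* 1.34 (adjusted p = 0.000154) and that of *Mfap4* 1.01 (adjusted p = 0.0128), while *Loxl2* missed the threshold (adjusted p = 0.0536). Male-typed cells made up 68.0%, 63.5% and 55.9% of TM10. Their *Eln* level was 1.68, 1.14 and 11.9 UMIs per 10,000, and that of the other cells 1.62, 0.932 and 10.6, so the mutant level lay above both controls in each.

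Whether TM10 differed from the rest of the stroma was tested with an interaction term, with the library as a block, a fit chosen after the data were seen. The difference in log2 fold change was called for 4 members, where 4.64% of 13256 genes were. It was 2.55 ± 0.21 for *Eln* (adjusted p = 3.67e-13), 2.15 ± 0.17 for *Mfap4* (adjusted p = 3.43e-14), 1.57 ± 0.19 for *Efemp1* (adjusted p = 1.81e-08) and 0.76 ± 0.21 for *Lox* (adjusted p = 0.0164). *Loxl2* rose in TM10 and elsewhere, with a difference of 0.12 ± 0.23 that was not called (adjusted p = 0.908).

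*Mfap4* was called lower in 4 single labels by the main fit. In TM1 (4.79% of genes called) it went from 4393 and 4401 to 1814 CPM (-1.28 ± 0.24, adjusted p = 1.60e-05). Of the keratocyte markers highest in TM1, *Kera* had levels of 65.7, 59.6 and 15.8 UMIs per 10,000. *Kera* was found in 97.5%, 89.9% and 65.2% of cells. *Angptl7* had 31.1, 60.9 and 43.3, with the mutant library between the controls. *Eln* had 1, 3 and 23 UMIs in TM1 and passed the filter on low counts through the mutant library alone, so its call there is not used as support. No cell of either control held more than 1 *Eln* UMI, while the highest mutant cell held 9.

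In TM9, where 15.1% of genes were called, 6 members changed, the most of any label. *Mfap4* fell from 1572 and 1408 to 606 CPM (-1.30 ± 0.20, adjusted p = 7.54e-09), and *Loxl2* rose from 36.1 and 38.2 to 135 (1.86 ± 0.24, adjusted p = 5.64e-13). *Lox* (-0.84), *Loxl1* (-0.63) and *Fbn1* (-0.67) fell and *Eln* rose (0.74), but none of these 4 was called by DESeq2 or in male-typed cells, where the sign for *Eln* turned (-0.51). Of 16 partner genes that passed the filter in TM9, 5 fell and none rose. Thinned shares of TM9 cells with *Loxl2* were 6.44%, 8.56% and 23.01%. TM9 made up 7.28%, 8.97% and 16.8% of stromal cells, and its stress genes summed to 60.7, 59.6 and 34.1. A blood list of 4 haemoglobin genes summed to 0.219, 0.239 and 6.15 UMIs per 10,000 in TM9. Their part in the TM9 calls was not tested.

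*Mfap4* also fell in TM3 (-0.63, adjusted p = 0.0375, 7.03% of genes called) and TM5 (-0.94, adjusted p = 0.00802, 2.48% called), in both cases without a call by DESeq2 or in male-typed cells. In TM3 *Efemp2* fell (-0.79, adjusted p = 0.0170) and *Fbn1* rose (0.90, adjusted p = 0.00250), neither called by DESeq2. TM7 (5.07% called) and TM8 (3.58% called) each had 3 members that rose. In TM7 these were *Eln* (1.47, adjusted p = 0.00549), *Loxl2* (1.19, adjusted p = 0.0209) and *Efemp1* (1.04, adjusted p = 0.0247), with *Eln* at 34.9, 29.9 and 89.7 CPM. In TM8 they were *Eln* (1.45, adjusted p = 0.0265), *Loxl2* (1.26, adjusted p = 0.0236) and *Fbln5* (0.85, adjusted p = 0.0434). DESeq2 called none of the 3 in TM8 and did not call *Loxl2* in TM7. In male-typed cells the TM8 calls were lost, as were those of *Eln* (0.85) and *Efemp1* (-0.37, with the sign turned) in TM7. Male-typed mutant cells numbered 32 in TM7 and 21 in TM8. The TM8 log2 fold changes in male-typed cells were 1.43 for *Eln*, 1.24 for *Loxl2* and 0.75 for *Fbln5*. TM11 had too few cells for a fit.

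In cluster 13 (3.91% of genes called) *Efemp1*, at 1, 4 and 10 UMIs, passed the filter through the mutant library alone. Its adjusted p was 0.0108 with the filter and 0.491 without it, and the call is not used as support. No member was called in TM2 (1.39%), TM4 (6.52%), cluster 17 (0.288%, 20 genes up and 13 down, or 11 and 4 with RLE size factors) or cluster 18 (3.22%). In TM6, with 0% of 5200 genes called by edgeR, 729 genes had an unadjusted p under 0.05 and DESeq2 called 55. *Mfap4* in TM6 went from 1237 and 1232 to 574 CPM, which was not called in the main fit (adjusted p = 0.122). It was called by DESeq2 (adjusted p = 0.0243). By edgeR it was called with RLE size factors (adjusted p = 0.000509), with no filter (0.000872) and in male-typed cells (0.000262). *Fbn1* was called in TM6 with RLE size factors, *Loxl2* with no filter and *Fbln5* in male-typed cells. *Loxl2* there had 3, 4 and 13 UMIs.

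Of the mural class, where 16.4% of genes were called, 4 of 10 members were called. *Fbn1* rose from 61.8 and 74.8 to 113 CPM (0.72 ± 0.17, adjusted p = 0.00871) and *Eln* from 50.3 and 46.6 to 70.7 (0.55 ± 0.18, adjusted p = 0.0477). *Mfap4* fell from 50.8 and 51.4 to 26.2 (-0.96 ± 0.22, adjusted p = 0.00644) and *Efemp2* from 55.4 and 54.9 to 30.1 (-0.87 ± 0.21, adjusted p = 0.00968). *Mfap4* was found in only 12.1%, 14.9% and 4.06% of mural cells, against 3.37%, 6.02% and 6.67% of T cells. Its mutant mural share was thus within the background of free RNA. The make-up of the class differed: smooth muscle cluster 19 was 37.4%, 42.1% and 15.7% of mural cells and pericyte cluster 20 was 44.5%, 43.2% and 64.3%. With equal numbers of cells per cluster none of the 4 was called, with adjusted p = 0.159 for *Eln* and 0.170 for *Efemp2*, in a fit that called 24 of 9203 genes (0.261%). DESeq2 called none of them either. In male-typed cells 6 members were called: *Mfap4* (-2.27) and *Efemp2* (-1.76) by larger changes, with *Fbn2*, *Fbln5*, *Lox* and *Loxl1*, all lower. There *Fbn1* missed the threshold (adjusted p = 0.0594) and the sign for *Eln* turned (-0.17). Male-typed cells made up 62.3%, 72.3% and 3.70% of cluster 19, so the male-typed mutant pool held few cells of that cluster. Its part in the male-typed calls was not tested. The share of all genes called in the male-typed fit is not reported here, so the count of 6 is not read as a result. Of 17 partner genes that passed the filter in the mural class, 1 rose and 5 fell.

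*Fbln5* was the only member called in the endothelial class, where 12.9% of genes were called and 6 members passed the filter. It stood at 104 and 105 CPM in controls and 54.5 in *Angpt1*ΔNC (-0.94 ± 0.20, adjusted p = 0.000849), and its change differed from that of the stromal class by -1.22 ± 0.17 (adjusted p = 0.00359, 4.51% of genes called). SC cells held 253, 312 and 66 of the 278, 332 and 92 endothelial *Fbln5* UMIs and made up 15.6%, 19.3% and 7.18% of endothelial cells. Without SC the level was 12.03, 8.17 and 16.6 CPM, a log2 fold change of 0.73 with the sign turned and no call (adjusted p = 0.254). LEC, with 3, 1 and 12 cells, then held 3, 4 and 15 of the UMIs. With LEC left out as well, the level was 10.6, 6.53 and 7.78 CPM, with the mutant library between the controls (-0.12 ± 0.54, adjusted p = 0.921). DESeq2 did not call it either (adjusted p = 0.141). The 15 mutant SC cells had a level of 3.45 UMIs per 10,000, against 4.32 and 4.65 in the 46 and 63 control cells, and SC was too small for a fit of its own. Of 11 partner genes that passed the filter in the endothelial class, 2 rose and 2 fell.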

How the data were processed

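Dissociated cells were measured with droplet 3′ RNA-seq in 2 control pools and 1 *Angpt1*ΔNC pool. The authors deposited UMI counts per gene and called cell, made with Cell Ranger on mm10 (version 2.1.1 in the processing notes, 3.0.2 in the matrix headers), and a table of kept cells with their Seurat (3.1.3) labels, after their own filters and doublet removal. That table's integrated values on a natural log scale, also from the authors, were not used. Kept cells were matched to the counts by barcode. A level is the average, over the cells of a label, of UMIs per 10,000. Similar genes had a level of at least 0.5 in some label and were compared as log2(level + 0.05). Shares have exact Clopper-Pearson 95% intervals, and 0 is given the limit of 3 counts.

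Counts were summed per library and label and tested with edgeR 4.0.16 (quasi-likelihood, TMM, filterByExpr, Benjamini-Hochberg over all genes, adjusted p under 0.05) in R 4.3.3. The fit has 1 residual degree of freedom, so the variance of a gene is drawn largely from all genes of the fit. How much is borrowed differs between fits, and p-values are not compared between labels. Single fits were limited to the TM labels and the few clusters with a single fit reported above, and needed at least 50 cells in every library. The mural clusters and other labels of that size were not fitted alone. DESeq2 1.42.0, RLE size factors, no filter, male-typed cells, equal cells per label and leaving out each control were the alternatives, and those without TM10, without SC, without SC and LEC, without *Myoc* cells or with equal cells per mural cluster, with the interaction fits, were added after seeing the data. On simulated stromal data, 91% of 2-fold and 100% of 4-fold changes were recovered over 13589 genes and 11.98% of calls were false. In simulated interaction fits, 87.5% of 4-fold differences were recovered for TM10 (12863 genes, 5.41% of calls false) and 92.5% for the endothelial class (13300 genes, 4.64% false).

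Every member is named, with the 3 genes of most similar control pattern (for *Fbn2* these are not reported here), *Angpt1*, and the partner genes called in the stromal class. Members and lists were chosen with earlier results of these data known. Replicate numbers follow the order of deposit and pair nothing. Promoters and positions come from RefSeq (GRCm38.p6) and GENCODE M21. Python 3.11.15 was used with numpy 2.4.6, scipy 1.17.1, pandas 2.3.3 and matplotlib 3.10.9.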

Additional observations from a re-analysis of the deposited data

Results flagged for a closer look

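The *Angpt1*ΔNC difference itself differed between groups of cells for 5 results, each by an interaction term in edgeR. Between TM10 and the other TM labels, the difference of the log2 fold changes was 2.55 for *Eln* (adjusted p = 3.67e-13), 2.15 for *Mfap4* (adjusted p = 3.43e-14), 1.57 for *Efemp1* (adjusted p = 1.81e-08) and 0.76 for *Lox* (adjusted p = 0.0164). For *Mfap4* the sign of the change turned, with a log2 fold change of 1.52 in TM10 and -0.63 in the stromal class without TM10. *Lox* alone was not called in TM10 itself. Between the endothelial and the stromal class, the difference was -1.22 for *Fbln5* (adjusted p = 0.00359). The share of SC among endothelial cells moved with it, at 15.6%, 19.3% and 7.18%, and without SC the endothelial log2 fold change was 0.73. LEC cells numbered 3, 1 and 12, and without SC and LEC it was -0.12, with no call. The TM10 and endothelial fits share their 3 libraries and were chosen after seeing the data, so they are not independent of the values that drew attention to them.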

How the results depend on the processing

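Of 32 calls of members over all classes and single labels, 2 (*Eln* in TM1 and *Efemp1* in cluster 13) passed the filter through the mutant library alone and are not counted further. Of the other 30, 7 were kept under every alternative that gives a test: *Mfap4* in the stromal class and TM1, *Mfap4* and *Loxl2* in TM9, and *Eln*, *Mfap4* and *Efemp1* in TM10. The stromal count of 4 became 2 without TM10. The mural count of 4 became 0 under DESeq2 and 0 with equal cells per cluster. The endothelial count of 1 became 0 under DESeq2, 0 without SC and 0 without SC and LEC. In single labels the main fit made 23 calls, with the 2 set aside above among them, and DESeq2 made 9. The 9 include *Mfap4* in TM6, which is not among the 23. Signs turned in male-typed cells for *Fbn1* in the stromal class (0.46, against -0.06), *Eln* in the mural class (-0.17), *Efemp1* in TM7 (-0.37) and *Eln* in TM9 (-0.51). They also turned without TM10 for *Efemp1* in the stromal class (-0.016) and without SC for *Fbln5* in the endothelial class (0.73), but not without SC and LEC (-0.12). Leaving out each control gave -0.14 and 0.0062 for stromal *Fbn1*. The cause was not tested. *Eln* in TM5 was not called in the main fit (-0.17) but was in male-typed cells, by edgeR (-2.23, adjusted p = 0.00078). Its values there were 74.9, 80.3 and 16.5 CPM, with 40, 91 and 39 cells. Calls were gained elsewhere too, and not all are listed here. With no filter, *Mfap4* was called down (-0.69) and *Efemp1* up (0.73) in TM8, while *Efemp1* was called down in TM1 (-3.27). Counts over all genes also moved by more than 1.5 times. DESeq2 called 617 against 1251 in the stromal class, 505 against 1898 in the mural class and 238 against 1250 in the endothelial class. In single labels DESeq2 called 37 against 444 in TM1, 83 against 145 in TM2, 70 against 610 in TM3, 165 against 680 in TM4, 19 against 202 in TM5, 238 against 545 in TM7, 123 against 344 in TM8, 187 against 1296 in TM9 and 154 against 986 in TM10. In clusters 13, 17 and 18 it called 29 against 304, 175 against 33 and 56 against 281. Equal cells left 708 stromal and 24 mural calls. Male-typed cells gave 143 in TM1, 227 in TM3, 349 in TM9, 0 in cluster 13 and 443 in cluster 17, and cells with no *Myoc* UMI 453 in TM10. With no filter there were 2441 stromal calls, 550 in TM2, 1351 in TM7, 729 in TM8, 2 in cluster 13 and 13 in cluster 17, and with RLE factors 52 in TM2, 854 in TM7 and 15 in cluster 17. In TM6, with 0 calls, these settings gave 174, 296 and 344. No paired analysis was possible because the *Angpt1*ΔNC group has 1 library. With 1 residual degree of freedom, leaving out a control gives a fold change and no test.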
